A study of Mus musculus with 9 samples.

Results

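The transcripts described here are 10 RNAs annotated as noncoding: the long noncoding RNAs Malat1, Neat1 and Kcnq1ot1, the small nucleolar RNA (snoRNA) hosts Gas5, Snhg1 and Snhg12, and the microRNA (miRNA) hosts Mir155hg, Mir17hg, Mir22hg and Dleu2. They were chosen by gene symbol, and each symbol matched exactly 1 of the 45535 rows of the deposited table that carry a symbol. All 10 passed the filter on low values (an average of 10 or more normalized counts across the 9 samples), which left 18202 genes to test. RNA sequencing was done on total RNA of CD103+ lung dendritic cells from C57BL/6J mice (written C57/BL6j in the labels), and every mouse had received bleomycin, a drug used to model lung injury and fibrosis, for 7 days. Lungs were digested with collagenase and CD103+ cells were taken on magnetic beads. The 5 samples before culture gave their RNA directly. The 4 samples after culture were kept outside the animal for 18 h, in RPMI supplemented with FBS (fetal bovine serum) and penicillin with streptomycin, before RNA was taken. No cells of untreated mice and no other culture time were analysed here. It is not stated whether a sample is 1 mouse or a pool, or whether samples came from separate animals, so p-values measure the spread between these samples, which may be partly technical. The extraction text in the labels speaks of lung RNA, while the cell type label and the design name the bead-isolated cells.

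CD103 is the integrin encoded by Itgae, and in the lung it marks most type 1 conventional dendritic cells. Of 11 genes listed as a check of the labelled cell type, all were read in both groups, with 3 higher and 8 lower after culture (median log2 fold change -3.12). Their summed level was 143423 to 172698 before and 32451 to 36273 after culture. Itgae itself went from a normalized count of 18138 ± 1537 (SD, n = 5) to 1727 ± 335 (SD, n = 4).

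Long noncoding RNAs work as RNA. Malat1 gathers in nuclear speckles, where splicing factors are stored, and Neat1 is the scaffold around which paraspeckles assemble. Kcnq1ot1 is an imprinted antisense transcript that silences neighbouring genes on the paternal chromosome. Hosts such as Gas5 and the Snhg genes carry snoRNAs in their introns. The snoRNAs guide chemical modification of ribosomal RNA, and the spliced host RNA left behind is often removed quickly by nonsense-mediated decay, which depends on translation. A miRNA host is the primary transcript out of which Drosha cuts a hairpin. The mature miRNA then pairs through its seed, bases 2 to 8, with target mRNAs, and miRNAs with the same seed share most of their targets. In dendritic cells the product of Mir155hg, miR-155, is best known for rising on activation.

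The mature miRNAs encoded by the miRNA hosts show which of them could act on the same targets, and they are given 5′ to 3′ from RefSeq (GRCm38.p6) with the seed in capitals. In Mir155hg (chr16:84703167-84715245, plus strand) and Mir22hg (chr11:75461539-75466676, plus strand) there is 1 hairpin each, in Mir17hg (chr14:115042879-115046727, plus strand) there are 6, and in Dleu2 (chr14:61602839-61682373, minus strand) there are 2.
miR-155-5p: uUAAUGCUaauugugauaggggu
miR-22-3p: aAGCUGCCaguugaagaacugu
miR-17-5p: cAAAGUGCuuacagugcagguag
miR-20a-5p: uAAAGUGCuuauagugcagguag
miR-18a-5p: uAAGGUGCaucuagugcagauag
miR-19a-3p: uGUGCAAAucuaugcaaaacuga
miR-19b-3p: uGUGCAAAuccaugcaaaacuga
miR-92a-3p: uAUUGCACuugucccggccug
miR-15a-5p: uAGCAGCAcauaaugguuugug
miR-16-5p: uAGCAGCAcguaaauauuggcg

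The 10 miRNAs carry 7 different seeds. Within Mir17hg, miR-17-5p and miR-20a-5p share AAAGUGC, and miR-19a-3p and miR-19b-3p share GUGCAAA. Both miRNAs of Dleu2 share AGCAGCA. Other genes also carry these seeds, and the lines below give the miRNAs that lie in the protein-coding genes Mcm7 (miR-106b-5p, miR-93-5p and miR-25-3p) and Smc4 (miR-15b-5p, with a further copy of miR-16-5p).
miR-106b-5p: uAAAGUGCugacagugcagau
miR-93-5p: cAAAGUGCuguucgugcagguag
miR-25-3p: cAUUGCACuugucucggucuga
miR-15b-5p: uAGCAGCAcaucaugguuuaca

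For the snoRNA hosts, the sequence of interest is the transcription start. Genes of the translation machinery often begin with an unbroken run of C and T, the terminal oligopyrimidine tract, through which their translation is tied to growth signals, and snoRNA hosts such as Gas5 are known for it. The stretches below reach 50 bases to either side of the RefSeq start (GRCm38.p6), read on the gene's strand. Capitals mark the longest run of at least 6 C or T letters within 20 bases of the start.
Gas5 chr1:161035116-161035215 (+ strand): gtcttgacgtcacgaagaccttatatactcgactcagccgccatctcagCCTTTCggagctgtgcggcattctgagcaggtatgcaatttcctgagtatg
Snhg1 chr19:8723437-8723536 (+ strand): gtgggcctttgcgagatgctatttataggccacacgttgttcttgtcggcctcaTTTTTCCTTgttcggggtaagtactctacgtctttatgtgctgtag
Snhg12 chr4:132308628-132308727 (+ strand): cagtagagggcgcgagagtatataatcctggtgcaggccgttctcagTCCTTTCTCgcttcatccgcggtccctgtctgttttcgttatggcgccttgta

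The run covers 6 bases in Gas5, 9 in Snhg1 and 9 in Snhg12. It starts 1 base before the annotated start in Gas5, 3 bases before it in Snhg12 and 4 bases after it in Snhg1. The other RefSeq start of Gas5, which lies upstream, has no such run. Searched the same way on the gene's strand only, 37.5% of 32851 RefSeq start windows held a run, so its presence alone sets no gene apart. Among windows of tested genes the share was 36.7%. A run was found in 10 of 16 windows of other snoRNA hosts (62.5%) and in 7 of 10 windows of translation factors (70%). Counted by gene with at least 1 such window, it was found in 9 of 15 other snoRNA hosts (60%) and 7 of 10 translation factors. A match describes these letters and is not a mapped start site.

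Depth was high enough for every transcript to be read in every sample. Rows with a symbol held 14.7 to 28.8 M reads per sample before culture and 26.0 to 35.3 M after, and a single read counted for 0.758 to 1.79 on the normalized scale. The lowest read count of any of the 10 transcripts in any sample was 77, for Mir155hg before culture. Together the 10 transcripts took 0.800 ± 0.109% of named reads before culture (SD, n = 5) and 1.67 ± 0.494% after (SD, n = 4), most of it Malat1. Replicate 3 after culture was the highest of its group for 9 of the 10 transcripts and replicate 4 before culture for 6, and both carry the number 4 in their library names.

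Between the groups, 5 of the 10 transcripts rose after culture (Malat1, Kcnq1ot1, Mir155hg, Mir17hg and Dleu2), 4 fell (Gas5, Snhg1, Snhg12 and Mir22hg) and Neat1 did not pass the test. The threshold was an adjusted p of 0.05 from limma with Benjamini-Hochberg adjustment over all tested genes. Of all 18202 tested genes 68.8% passed it, which splits into 34.2% that were higher and 34.6% that were lower. A count of 9 in 10 is therefore read against a background in which most genes differed between cultured and uncultured cells. The median log2 fold change was 0.09 over the 10 transcripts and 0.0065 over all tested genes. For 8 of the 10 no sample of one group reached the other group, and 57.3% of all tested genes met that too. By kind of host, the 3 snoRNA hosts fell and 3 of the 4 miRNA hosts rose. In bulk samples such as these, fewer cells of a type and less RNA per cell cannot be told apart.

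**Figure D1:**
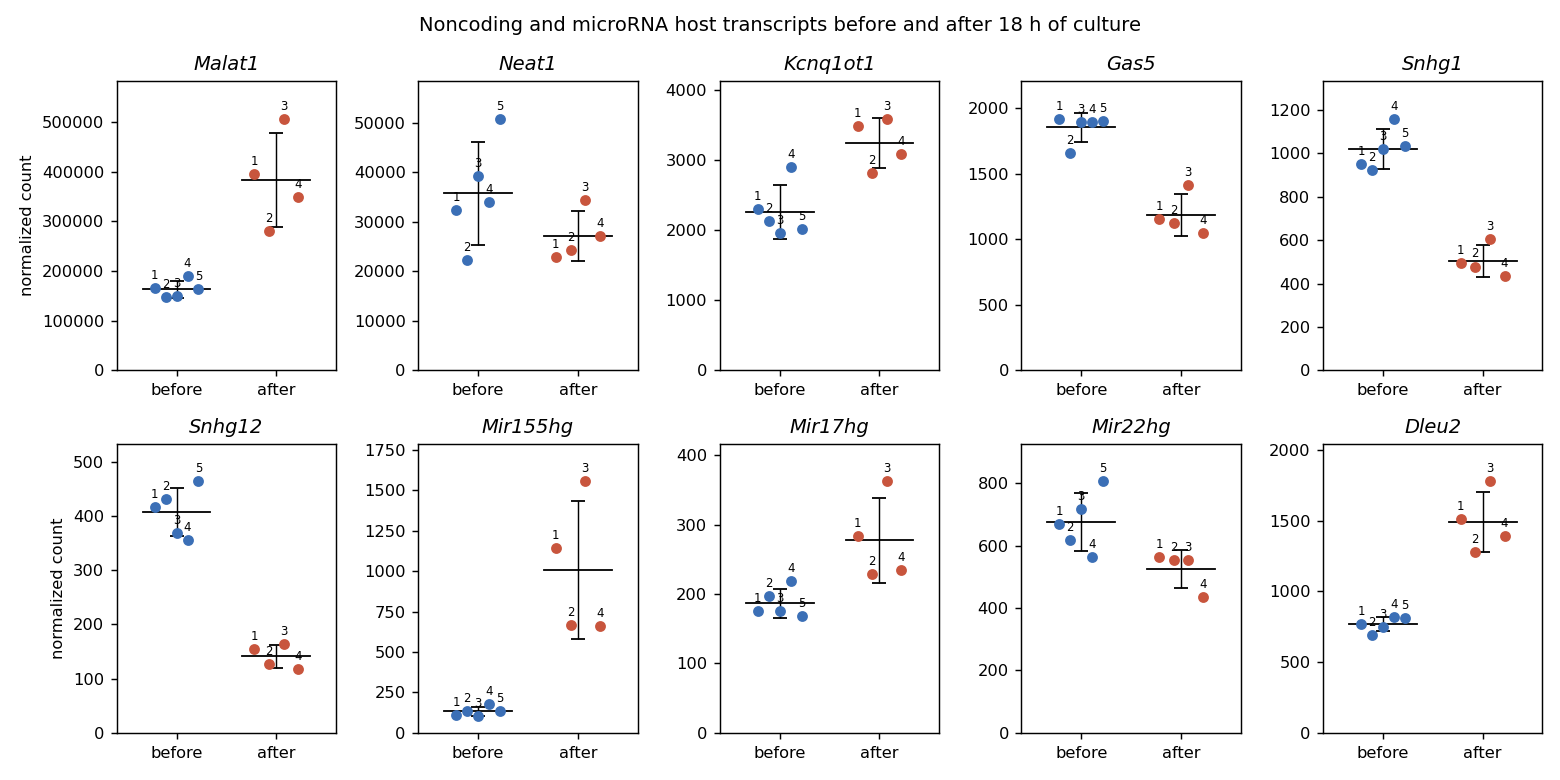
Normalized count of each transcript (vertical axis, linear, from 0) in each of the 5 samples before culture (blue) and the 4 after 18 h of culture (red). Points are samples numbered by replicate, long bars are means and whiskers are 1 SD. Malat1, Mir155hg and Dleu2 lie apart and higher after culture, Gas5, Snhg1 and Snhg12 apart and lower, and the groups of Neat1 and Kcnq1ot1 overlap.

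With both libraries numbered 4 left out, the same 9 transcripts passed in the same directions, and Neat1 passed too (-0.49, limma adjusted p = 0.0444). Markers of other cells also differed between the groups. Those of endothelium (10 of 10 lower, summed level 26120 to 37902 before and 3387 to 4500 after culture), fibroblasts (10 of 10 lower, 18095 to 32274 and 2541 to 4944) and alveolar epithelium (11 of 11 lower, 25334 to 42440 and 4605 to 8607) fell with culture. Neutrophil markers fell in 7 of 7 tested (14298 to 25015 and 932 to 1902, with Ly6g at 0 in all samples after culture), natural killer cell markers in 7 of 8 (2107 to 4026 and 485 to 677), alveolar macrophage markers in 7 of 9 (24188 to 34019 and 12489 to 17387), and monocyte and interstitial macrophage markers in 6 of 10 (41528 to 77724 and 18247 to 41987). T cell markers were 1 of 10 higher and 3 lower (8470 to 10090 and 7643 to 10225), and B cell markers 1 of 8 higher and 1 lower (3094 to 5736 and 3143 to 4509). No other listed marker was at 0 in a whole group. The part of these other cells in the changes of the 10 transcripts was not tested.

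Malat1 (chr19:5795690-5802672, minus strand in GENCODE M21, GRCm38) was the most abundant of the 10. Its normalized counts before culture were 165593, 147156, 149343, 188917 and 164389 in replicates 1 to 5. After culture they were 395390, 280546, 506537 and 349190 in replicates 1 to 4. All 4 samples after culture lay above all 5 before it, and replicate 3 after culture was highest by a wide margin. Its mean moved from 163080 ± 16717 (SD, n = 5) to 382916 ± 94965 (SD, n = 4), a ratio of 2.35. On the log2(value + 1) scale, on which all fold changes below are given, the change was 1.20 (SE 0.170, limma adjusted p = 2.95e-05). The share of named reads taken by Malat1 ran from 0.559 to 0.784% before culture and from 1.05 to 2.14% after.

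Neat1 (chr19:5824708-5845478, minus strand), its neighbour on the chromosome, did not follow. Counts before culture were 32328, 22235, 39308, 34010 and 50780, and after culture 22847, 24268, 34320 and 27149. The samples before culture spread over more than the distance between the groups, and every sample after culture lay inside that spread. The means were 35732 ± 10440 (SD, n = 5) and 27146 ± 5106 (SD, n = 4). The log2 fold change was -0.36 with a 95% interval of -0.78 to 0.056 (limma adjusted p = 0.112). The call depended on which samples were used. Without replicate 2 before culture, the lowest of its group, the change was -0.52 (limma adjusted p = 0.0124), and without replicate 3 after culture it was -0.48 (limma adjusted p = 0.0435). Within each sample the ratio of Malat1 to Neat1 counts was 3.24 to 6.62 before culture and 11.6 to 17.3 after, with no overlap between the groups. The Neat1 row spans both the short and the long isoform, and only the long one builds paraspeckles, so the row does not show how much of either was made.

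The proteins that share a compartment with these RNAs are listed next. Of 16 paraspeckle proteins, 4 were higher, 8 lower and 4 did not pass, with a median log2 fold change of -0.22. The core proteins Sfpq and Pspc1 fell, Sfpq from 11246 to 7721 and Pspc1 from 884 to 564, as did Ewsr1, an RNA-binding protein. Tardbp, which encodes TDP-43, rose from 2342 to 3420, and Hnrnph3 and Rbm14, RNA-binding proteins needed for paraspeckles or found in them, rose as well. Of 18 speckle and SR proteins, which steer splicing and occupy the same bodies as Malat1, 3 were higher and 12 lower, with a median of -0.49. Srsf6, Srsf2 and Srsf5, SR proteins, had the smallest adjusted p among the lower ones, with Srsf2 going from 6941 ± 620 (SD, n = 5) to 3709 ± 199 (SD, n = 4). Srsf10, Srsf1 and Mettl16, the last an RNA methyltransferase that binds the triple helix of Malat1, were the 3 that rose, and Srsf1 did not hold once each sample's trend over GC content and length was removed (0.03, limma adjusted p = 0.831).

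Kcnq1ot1 (chr7:143203458-143296549, minus strand) is annotated as 1 exon of 93092 bases inside the gene Kcnq1, on the opposite strand. Its counts were 2298, 2128, 1954, 2904 and 2010 before culture and 3480, 2814, 3589 and 3085 after. Replicate 4 before culture was above replicate 2 after it, so the groups overlapped by that pair. Means were 2259 ± 384 (SD, n = 5) and 3242 ± 358 (SD, n = 4), and the log2 change was 0.53 (SE 0.115, limma adjusted p = 0.00104). With the trend over GC content and length removed from each sample the change was 0.20 (limma adjusted p = 0.0401).

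Of 11 genes in the imprinted domain around Kcnq1ot1, 9 were tested, and 1 was higher, 5 lower and 3 did not pass (median -1.31). Tssc4 fell from 758 ± 76.0 (SD, n = 5) to 203 ± 36.3 (SD, n = 4). Cd81, a tetraspanin, fell from 4532 to 1832, and Trpm5, a cation channel, from 120 to 23.6. Tspan32, another tetraspanin, rose from 428 to 659. Kcnq1, a potassium channel gene that shares 121 exonic bases with Kcnq1ot1 on the other strand, fell from 115 to 34.8. The sources used here do not say whether reads were counted by strand, so reads from the shared bases cannot be assigned to either gene. If strand was ignored, unspliced Kcnq1 RNA anywhere along the 93092 bases would also count as Kcnq1ot1. The limit therefore covers the whole Kcnq1ot1 row and its rise. Allele of origin was not measured.

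**Figure D2:**
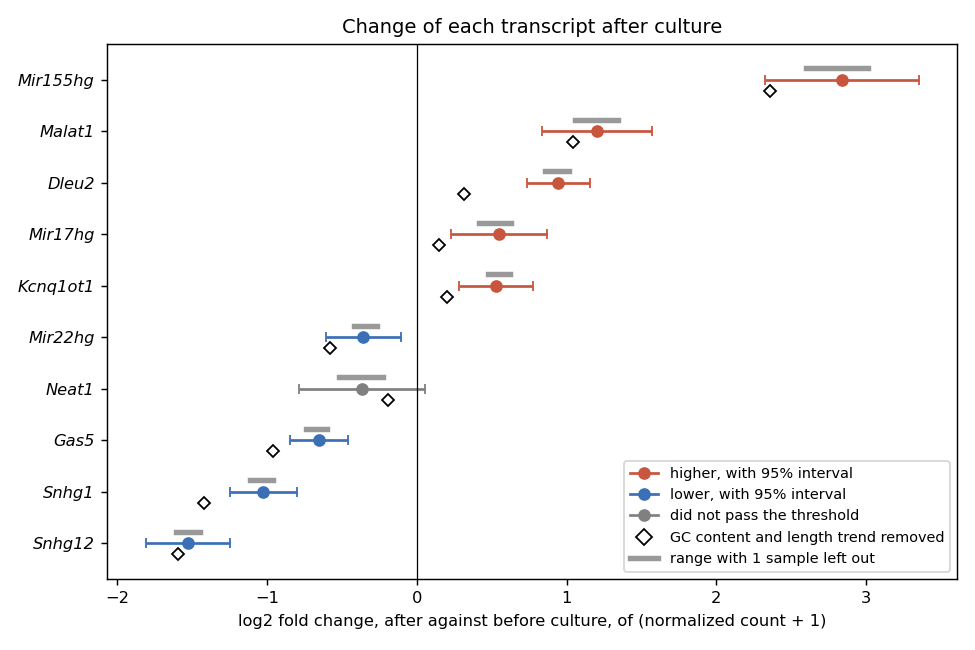
Log2 fold change after against before culture, on the log2(normalized count + 1) scale (horizontal axis), for each of the 10 transcripts. Filled points are the values with 95% intervals, colored by the call, gray bars give the range over 9 fits that each leave out 1 sample, and open diamonds give the value after removing each sample's trend over GC content and length. Mir155hg lies highest at 2.84 and Snhg12 lowest at -1.53, and the diamonds of Dleu2, Mir17hg and Kcnq1ot1 lie closer to 0 than their points.

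The 3 snoRNA hosts all fell, and in none of them did the groups overlap. Over all tested genes 34.6% were lower, and 57.3% had no overlap in either direction. Gas5 (chr1:161034422-161038539, plus strand), whose spliced RNA accumulates in growth-arrested cells, had counts of 1921, 1661, 1898, 1894 and 1903 before culture and 1154, 1126, 1415 and 1045 after. The 4 samples other than replicate 2 lay within a narrow band before culture, and no sample after culture came near it. The mean went from 1855 ± 109 (SD, n = 5) to 1185 ± 160 (SD, n = 4), and the log2 fold change was -0.65 (SE 0.0905, limma adjusted p = 2.43e-05).

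Snhg1 (chr19:8723475-8726443, plus strand) had counts of 952, 924, 1022, 1160 and 1036 before culture and 494, 478, 605 and 435 after. Its highest sample after culture was well under its lowest before. Its mean fell from 1019 ± 91.7 (SD, n = 5) to 503 ± 72.5 (SD, n = 4), and the log2 change was -1.02 (SE 0.104, limma adjusted p = 1.25e-06).

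Snhg12 (chr4:132308623-132311024, plus strand) fell most of the 10. Counts were 416, 432, 369, 355 and 464 before culture and 155, 127, 164 and 119 after, again with wide separation. Its mean dropped from 407 ± 44.9 (SD, n = 5) to 141 ± 21.9 (SD, n = 4), and the level before culture was 2.89 times that after (log2 change -1.53, SE 0.129, limma adjusted p = 2.06e-07). The 95% intervals of the changes of Gas5 (-0.85 to -0.46) and Snhg12 (-1.81 to -1.25) do not overlap, and that of Snhg1 (-1.25 to -0.80) lies between them. The differences among the 3 were not tested.

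The snoRNAs themselves lie along these hosts, 10 annotated in Gas5, 8 in Snhg1 and 5 in Snhg12. A pair named Snord80 in Gas5 cover each other, as do a pair named Snora16a in Snhg12. Each lies in an intron of some annotated transcript and in an exon of another. Of these annotations 9, 8 and 5 have a row under their symbol, with each pair of the same name sharing a row. Those rows were at 0 in all 9 samples, so the table gives no snoRNA level and the host rows cannot be read as one. Shared sequence was moderate: 5.62% of 50-base windows of the longest Gas5 transcript, 8.29% of Snhg1 and 5.91% of Snhg12 also occurred in transcripts of other genes. The gene that shared most was a nested one each time (Mir5117, annotated as a snoRNA, Snord22 and Snora16a). Gas5 also overlaps the gene Zbtb37 on the opposite strand with no shared exonic base (513 before and 1380 after culture).

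**Figure D3:**
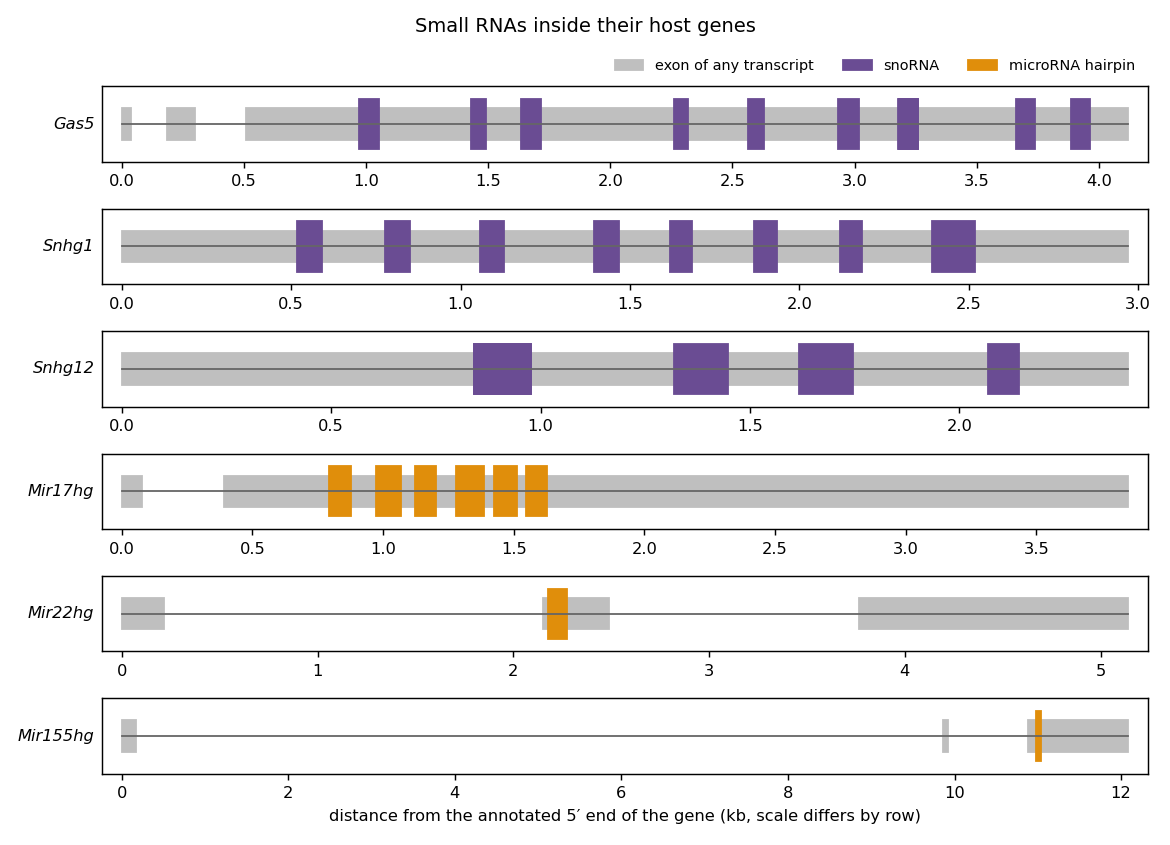
Maps of 6 of the 7 snoRNA and miRNA hosts (Dleu2 is not drawn), drawn to scale in kb from the annotated 5′ end (horizontal axis, scale differs by row). Gray boxes are exons of any transcript, purple boxes snoRNAs and orange boxes miRNA hairpins. The snoRNAs of Gas5, Snhg1 and Snhg12 run along most of the gene, the 6 hairpins of Mir17hg stand in 1 cluster, and Mir155hg and Mir22hg hold 1 hairpin each.

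Other snoRNA hosts moved mostly the same way. Of 18 listed, 14 had a row and 13 were tested, and 2 were higher, 9 lower and 2 did not pass (median -0.58, against 0.0065 over all tested genes). Snhg8 fell from 454 ± 84.8 (SD, n = 5) to 103 ± 14.3 (SD, n = 4), Snhg16 from 278 to 129 and Snhg11 from 25.8 to 5.20. Snhg20 rose from 108 to 162 and Snhg17 from 418 to 514. With upper quartile scaling or quantile normalization 6 rather than 9 were lower, the calls of Snhg5, Snhg6 and Zfas1 being lost.

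Factors that act on the snoRNAs and on the host RNAs were counted in the same fit. Of 14 proteins of snoRNA particles 1 was higher and 9 were lower (median -0.38). The box C/D core proteins Nop56, Fbl, the methyltransferase, and Nop58 had the smallest adjusted p among the lower ones, with Fbl going from 2414 ± 184 (SD, n = 5) to 1126 ± 164 (SD, n = 4). Znhit6, an assembly factor, rose from 131 to 209. Of 16 translation factors whose mRNAs are known for a terminal oligopyrimidine start, none was higher and 13 were lower (median -0.40). Eef1b2 fell from 5550 to 2689, Eef2, the elongation factor that moves the ribosome along, from 72049 to 32430, and Hnrnpa1, a splicing factor on the same list, from 4766 to 2769. Of 14 nonsense-mediated decay factors 3 were higher, 4 lower and 7 did not pass (median -0.09). The kinase Smg1 rose from 10042 to 15879, Upf2 and Smg8 rose too, and the exon junction proteins Eif4a3 and Magoh fell, Eif4a3 from 1918 to 1040, as did Smg9. The sign of that median turned under upper quartile scaling (0.01) and after GC and length correction (0.08). Both settings also moved the median of all genes, to 0.11 and 0.13, and the list median stayed below it. Smg9 was no longer lower after the correction (0.10, limma adjusted p = 0.246).

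Among the miRNA hosts Mir155hg, the BIC transcript, changed most, and its fold change was the largest of the 10 transcripts. Counts before culture were 111, 134, 105, 177 and 138, and after culture 1145, 669, 1554 and 661. Every sample after culture was several times above every sample before it, but the 4 fell into a higher pair (replicates 1 and 3) and a lower pair (replicates 2 and 4). Averaged over samples it went from 133 ± 28.1 (SD, n = 5) to 1007 ± 429 (SD, n = 4), a ratio of 7.57, and the log2 change was 2.84 (SE 0.237, limma adjusted p = 1.83e-07). Leaving out 1 sample at a time kept the change between 2.60 and 3.01. Its single hairpin lies in the last exon.

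Mir17hg is the host of the miR-17-92 cluster, which favours proliferation and survival. Its counts were 175, 197, 175, 218 and 168 before culture and 284, 229, 362 and 234 after. The groups did not overlap, although replicate 2 after culture was little above replicate 4 before it. Means were 187 ± 20.7 (SD, n = 5) and 277 ± 61.7 (SD, n = 4), with a log2 change of 0.55 (SE 0.147, limma adjusted p = 0.00467). After the trend over GC content and length was removed, the change was 0.15 and did not pass (limma adjusted p = 0.294).

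Mir22hg was the 1 miRNA host that fell. Its counts were 669, 619, 718, 564 and 805 before culture and 564, 553, 552 and 434 after. Replicate 4 before culture and replicate 1 after it lay within 1 normalized count of each other (564.1 and 563.5), so the lack of overlap rests on that gap. Means were 675 ± 92.7 (SD, n = 5) and 526 ± 61.4 (SD, n = 4), with a log2 change of -0.36 (SE 0.116, limma adjusted p = 0.0145). The call was lost without replicate 4 after culture (-0.27, limma adjusted p = 0.0585) and with upper quartile scaling (-0.25, limma adjusted p = 0.0685), and the change was -0.58 after removal of the GC and length trend. Of its 50-base windows 9.22% occur in other genes, most of them in Tlcd2, with which it shares 206 exonic bases on the same strand (119 before and 118 after culture).

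Dleu2 is the host of miR-15a and miR-16, which restrain the cell cycle and the survival protein Bcl2. Counts were 769, 694, 749, 822 and 814 before culture and 1514, 1281, 1777 and 1392 after, with no overlap. The mean went from 770 ± 52.1 (SD, n = 5) to 1491 ± 213 (SD, n = 4), a ratio of 1.94 (log2 fold change 0.94, SE 0.0972, limma adjusted p = 1.44e-06). Removal of the GC and length trend moved the change to 0.31 (limma adjusted p = 0.00856). At 34.5% GC its longest transcript had the lowest GC content of the 10. On the opposite strand it overlaps Trim13, a ubiquitin ligase gene (82.2 before and 169 after culture), and Kcnrg (20.8 and 68.8), with no shared exonic base.

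The table gives no level of the mature miRNAs. The rows of the hairpins of miR-155, miR-22 and the 6 of Mir17hg were at 0 in all samples, although they lie inside exons of their hosts. Mir15a, in an intron of Dleu2, had a mean of 2.68 before and 10.0 after culture, with no sample above 17.3. Mir16-1 had a mean of 0.167 before culture and was at 0 after it. The host counts describe the host RNA only.

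Hosts that share seeds with these 4 were counted in the same fit. Mcm7, a helicase subunit for DNA replication whose intron holds miR-106b, miR-93 and miR-25, fell from 1529 ± 118 (SD, n = 5) to 652 ± 82.1 (SD, n = 4), with a log2 fold change of -1.23 (limma adjusted p = 7.37e-08). Its partner by seed, Mir17hg, rose in the same samples. That rise did not pass once the trend over GC content and length was removed (0.15, limma adjusted p = 0.294). Without that correction, the ratio of Mir17hg to Mcm7 counts within each sample was 0.112 to 0.154 before culture and 0.345 to 0.478 after. Smc4, a condensin subunit with miR-15b and a copy of miR-16, went from 2691 ± 237 (SD, n = 5) to 2270 ± 367 (SD, n = 4), with overlap between the groups (log2 fold change -0.26, limma adjusted p = 0.0429). That call did not hold with upper quartile, quantile or TMM scaling, under which the adjusted p was 0.243, 0.0700 and 0.0700. The ratio of Dleu2 to Smc4 was 0.250 to 0.327 before culture and 0.572 to 0.755 after. For both ratios every sample after culture lay above every sample before it. Mir17hg and Dleu2 had no overlap by themselves, and the means of Mcm7 and Smc4 were lower, so the ratios add no separate result. The differences between hosts were not tested further.

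**Figure D4:**
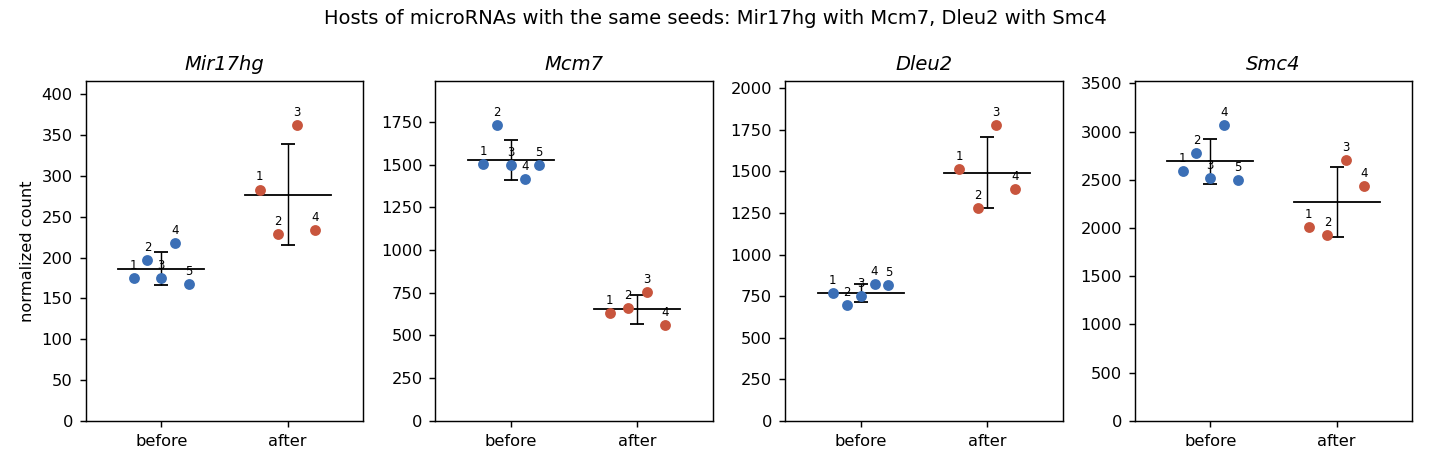
Normalized counts (vertical axes, linear, from 0) of Mir17hg and Mcm7, whose miRNAs share the seeds AAAGUGC and AUUGCAC, and of Dleu2 and Smc4, whose miRNAs share AGCAGCA, by group. Points are samples numbered by replicate, long bars are means and whiskers are 1 SD (5 samples before and 4 after culture). Mir17hg and Dleu2 are higher after culture while Mcm7 is lower, and the groups of Smc4 overlap.

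Other miRNA hosts spread to both sides. Of 17 other noncoding hosts listed, 14 had a row and 10 were tested, with 4 higher, 4 lower and 2 not passing (median -0.24). Mir100hg rose from 18.9 ± 3.37 (SD, n = 5) to 235 ± 62.4 (SD, n = 4), Mir181a-1hg from 6.69 to 50.1 and Mir142hg, the host of a miRNA typical of blood cells, from 292 to 555. Meg3, an imprinted transcript, fell from 77.4 to 8.76, Mir9-3hg from 22.9 to 5.78 and Lncpint from 998 to 661. Of 12 protein-coding hosts 1 was higher and 6 were lower (median -0.18). Pank3, a kinase of coenzyme A synthesis, rose from 2078 to 4436, and Egfl7, which holds miR-126 and is also on the list of endothelial markers, fell from 1518 to 99.1. Srebf2, which holds miR-33, fell from 12263 to 9506. With GC and length corrected 7 of the 12 were higher and 3 lower, Srebf2 among the higher (0.31, limma adjusted p = 0.000978), so the direction of that list depends on the correction.

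Of 16 proteins that make and use miRNAs, 8 were higher, 3 lower and 5 did not pass (median 0.19), the same share called as over all tested genes (68.8%). Ago3 rose from 1265 ± 30.7 (SD, n = 5) to 3333 ± 281 (SD, n = 4), Ago1, another Argonaute protein that holds the miRNA, from 2213 to 4054 and Dgcr8, the partner of Drosha, from 572 to 1037. Zc3h12a, the endonuclease Regnase-1, which can also cut miRNA precursors, fell from 6189 to 1768. Ddx5, an RNA helicase of the Drosha complex, fell from 32865 to 25919. Tnrc6c, a silencing partner of Argonaute, fell from 3336 to 2686, and not after GC and length correction (0.09, limma adjusted p = 0.303).

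Genes known from the literature as targets of these miRNAs were read as mRNA levels only, and nothing in these data ties a change to a miRNA. Of 12 miR-155 targets 3 were higher and 7 lower (median -0.41). Fos, an immediate early gene, fell from 74479 to 1512, Jarid2, a Polycomb partner, from 6343 to 2759, and the phosphatase gene Inpp5d, also called SHIP1, from 16340 to 7436. Tab2, an adaptor of NF-kB signalling, rose from 6271 to 7761, and Maf, a transcription factor of the AP-1 superfamily, rose too. Socs1, a brake on cytokine signalling, was 1222 before and 1231 after culture. Of 8 miR-17-92 targets 4 were higher and 3 lower (median 0.08), with Phlpp1, an Akt phosphatase, going from 2523 to 10842, the death activator Bcl2l11 from 6049 to 8395, and the cell cycle inhibitor Cdkn1a from 11431 to 5951. Among miR-22 targets Tet2, Hdac4 and Irf8 were lower, the last also on the list that checks the labelled cell type. Of 7 miR-15/16 targets none was higher and 5 were lower (median -1.13), with Ccnd1 going from 4106 to 447, Bcl2 from 1471 to 673 and Ccnd3 from 3197 to 1315. Hdac4 did not hold after GC and length correction (0.10, limma adjusted p = 0.230).

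**Figure D5:**
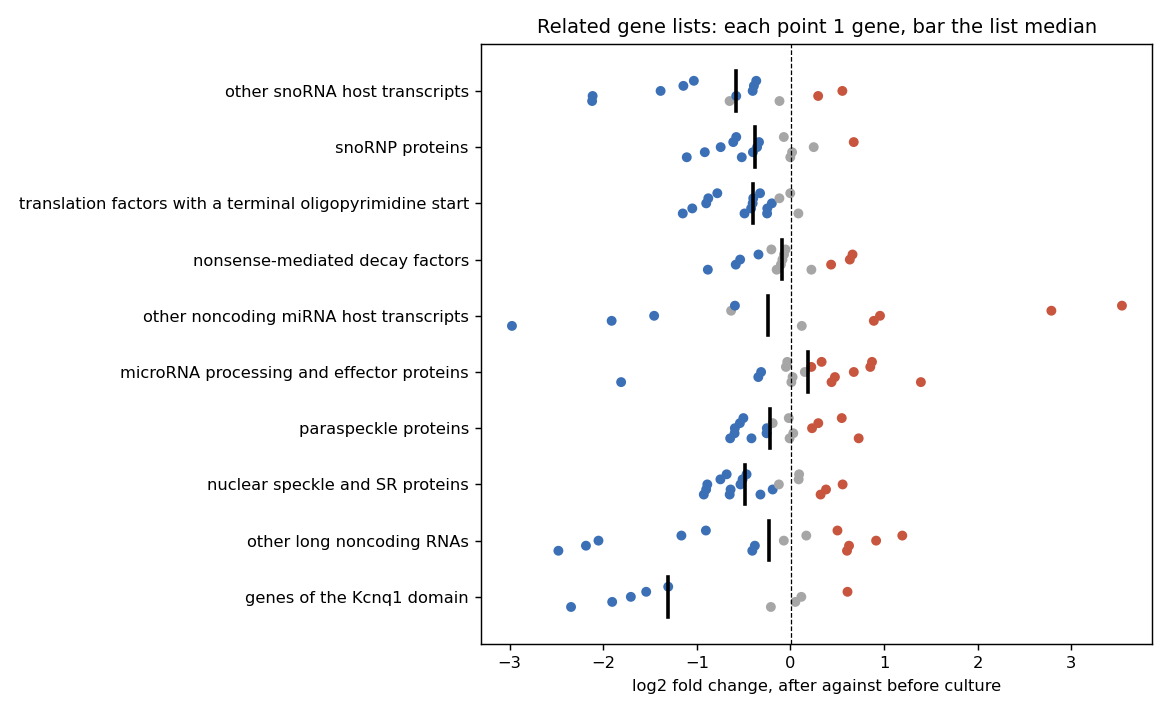
Log2 fold change after against before culture (horizontal axis) of each tested gene in 10 lists related to the transcripts. Points are genes, red where higher, blue where lower and gray where the test was not passed, and black bars are list medians. The median of the miRNA processing proteins (0.19) lies right of 0, and those of all other lists drawn lie left of it. Furthest left are the Kcnq1 domain genes (-1.31), the snoRNA hosts (-0.58) and the speckle and SR proteins (-0.49).

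Of 20 other long noncoding RNAs listed, 17 had a row and 14 were tested, with 5 higher, 7 lower and 2 not passing (median -0.23). Oip5os1 (also called Cyrano or OIP5-AS1) rose from 2081 ± 157 (SD, n = 5) to 4763 ± 349 (SD, n = 4), Tug1 from 3098 to 4777 and Norad, a decoy for Pumilio proteins, from 1311 to 1865. The RNA components of RNase P and RNase MRP, Rpph1 and Rmrp, fell from 68081 to 16050 and from 37755 to 6539. Miat fell from 29.2 to 5.12.

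Compared per kb of exonic sequence, so that genes of different length can be set side by side, the order of the 10 was led by Malat1 and Neat1 in both groups. Before culture the mean normalized counts per kb were 23354 for Malat1, 1720 for Neat1, 493 for Gas5, 351 for Mir22hg, 343 for Snhg1, 169 for Snhg12, 92.8 for Mir155hg, 67.9 for Dleu2, 52.8 for Mir17hg and 24.3 for Kcnq1ot1. Neighbours in that order overlapped between samples for Mir22hg and Snhg1 and for Dleu2 and Mir17hg, and for no other adjacent pair. After culture Mir155hg stood at rank 3 with 703 ± 299 per kb (SD, n = 4), behind Neat1 at 1307 ± 246 and ahead of Gas5 at 315 ± 42.5, and Snhg12 at rank 9 with 58.7 ± 9.11 (SD, n = 4). After culture the adjacent pairs with overlapping samples were Gas5 and Mir22hg, Snhg1 and Dleu2, and Mir17hg and Snhg12. The exonic length is that of all annotated transcripts merged, so levels of genes with many isoforms are understated.

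The genes whose log2 levels ran most like each transcript over the 9 samples were found among 11786 genes with a mean of at least 100. Most genes differ between the groups, and the Pearson correlations given here as a description include that difference. Closest to Malat1 were Gm44292 (0.995), 1500004A13Rik and Gm48478, and closest to Dleu2 were Snapc3 (0.997), Tnrc6a and Zfc3h1. Mir155hg ran with Npr1 (0.994), Slc35b3 and Gm42572, Mir17hg with 4930517G19Rik (0.977), Lax1 and Slc28a2b, and Kcnq1ot1 with A630081D01Rik (0.987), Mthfsl and Gm38062. Gas5 had Snhg1 among its closest 3 (0.983), beside Gm43412 and Plxna3. Snhg1 ran with Ing3 (0.993), Stk38l and Ints6l, Snhg12 with Gramd4 (0.996), Wdr90 and Knstrn, and Mir22hg with Gm43181 (0.961), Kxd1 and Lfng. The closest genes of Neat1 were Ptpn2 (0.966), Cdk12 and Nufip2, which differed little between the groups (log2 fold changes -0.05, -0.04 and -0.16). A transcript that did not pass the test tends to be matched with such genes.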

How the data were processed

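RNA of 9 samples of CD103+ lung dendritic cells was sequenced, 5 before and 4 after 18 h of culture, and samples were grouped by their titles. The authors deposited a table with 1 normalized count per gene and sample (unit: signal, with no value below 0). The submitters' processing notes name DESeq2 and genome build GRCm38. The aligner, the counting tool, its strand setting and the annotation are not given in the sources used here. All values (100%, within 0.01 of a read) were whole multiples of the value of 1 read in their column, so the deposited signal is whole read counts divided by 1 factor per sample, and the reads were recovered. Gene length and GC content are not accounted for in such values. Rows without a symbol (3782 of 49317, with 6.43 to 10.9% of reads before and 3.87 to 5.46% after culture) stayed out of depths and tests.

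Genes with a mean of at least 10 were fitted on the log2(value + 1) scale in R 4.3.3 by limma 3.58.1. The model held the group alone, with a trend of variance over level, the test was two-sided, and Benjamini-Hochberg adjustment ran over all 18202 genes at a threshold of 0.05. Fold changes on this scale understate those of low genes. Alternatives were other pseudocounts, filters and scalings, correction of every sample for a smooth dependence on GC content and transcript length, edgeR 4.0.16 and DESeq2 1.42.0 on the recovered reads, a replicate block by title number or by library number, and leaving out each sample. Leaving out both libraries numbered 4 was added after seeing the data.

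The 10 transcripts, the lists of related genes and the lists of markers were chosen with earlier results of these data known. Of each related list, up to 3 genes with the smallest adjusted p in each direction are named, together with genes that overlap one of the 10 transcripts or share its miRNA seeds. Socs1, chosen after its values were seen, is the exception. A result on 1 list of targets is not reported here. Positions, exons and overlaps come from GENCODE M21, which may not be the annotation the authors counted on, and miRNA and promoter sequences from RefSeq (GRCm38.p6). Tables were handled in Python 3.11.15 with pandas 2.3.3 and NumPy 2.4.6, and figures drawn with matplotlib 3.10.9. Reads carry no molecular identifiers here, so the spread between samples, not counting error, sets the precision.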

Additional observations from a re-analysis of the deposited data

Results flagged for a closer look

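In 2 of the 20 groups of values (10 transcripts, before and after culture), 1 sample stood apart from its group by Dixon's test, and chance alone flags about 1 in 20 groups. Gas5 in replicate 2 before culture was 1661, while the other 4 samples before culture were 1894 to 1921, a gap that covers 0.898 of the group's range. Without that sample Gas5 was still lower after culture (log2 fold change -0.69, limma adjusted p = 4.05e-05). Mir22hg in replicate 4 after culture was 434, below the other 3 samples of its group at 552 to 564, a gap of 0.913 of the range. Without that sample the log2 fold change of Mir22hg was -0.27 and did not pass (limma adjusted p = 0.0585).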

How the results depend on the processing

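Over 22 alternatives, 7 of the 10 transcripts (Malat1, Gas5, Snhg1, Snhg12, Kcnq1ot1, Mir155hg and Dleu2) kept direction and call in all of them, and no transcript changed direction in any. Mir22hg no longer passed with upper quartile scaling (-0.25, limma adjusted p = 0.0685) and without replicate 4 after culture (-0.27). Mir17hg no longer passed once the trend over GC content and length was removed (0.15), which also moved Dleu2 to 0.31, Kcnq1ot1 to 0.20 and Mir22hg to -0.58 and left Neat1 at -0.19. Neat1 passed when replicate 2 before culture (-0.52) or replicate 3 after culture (-0.48) was left out and, in a fit added after seeing the data, without both libraries numbered 4 (-0.49), and the cause was not tested. Leaving out 1 sample at a time gave -0.52 to -0.22 for Neat1, with limma adjusted p from 0.0124 to 0.271, and -0.42 to -0.27 for Mir22hg, with limma adjusted p from 0.00428 to 0.0585. The count of all changed genes was 11770 to 12668 in those fits, 12562 with edgeR and 12663 with DESeq2, which gave no adjusted p for 3 genes. After the GC and length correction, calls in many related lists also changed. Among them were other long noncoding RNAs (2 higher and 4 lower of 11), nonsense-mediated decay factors (6 and 3 of 14) and Kcnq1 domain genes (3 and 5 of 9). Paraspeckle proteins had 4 higher and 5 lower of 16, speckle and SR proteins 4 and 9 of 18, and snoRNA particle proteins 1 and 7 of 14. Translation factors had 0 and 11 of 16, miRNA processing proteins 11 and 2 of 16, and other noncoding miRNA hosts 3 and 5 of 8. The listed genes Smarca4, Srrm2, Spi1 and Evl turned from lower to higher, each with limma adjusted p under 0.05. Upper quartile scaling and the GC and length correction moved the median of all genes to 0.11 and 0.13, and the share of higher genes among the changed ones from 49.7% to 56.1% and 58.2%.

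Titles and library names number the samples differently. Samples with the same title number deviated together with correlations of 0.081, 0.080, -0.213 and -0.040, and those with the same library number with 0.081, 0.247, 0.349 and 0.045. Every sample after culture correlated best with its own library number, which is a hint of pairing from the data, not from the labels. Since 2 of these 4 correlations were near 0 and no label ties the numbers to animals, the samples were treated as unpaired. A replicate block by title number gave 11646 changed genes and changed no call of the 10 transcripts (Neat1 -0.22, limma adjusted p = 0.152). A replicate block by library number, in which replicate 2 before culture has no partner, gave 12836 changed genes and a call for Neat1 (-0.52, limma adjusted p = 0.00194).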
